A study of Mus musculus with 35 samples.

Results

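Water-injected control embryos of 2 stages were compared by total RNA sequencing: 9 samples of 2-cell (2C) embryos against 10 single zygotes, 19 of the 35 samples in the series. They were chosen by their labels alone (the Ctrl water 2C and Ctrl water zygote groups), and the other 16 samples came from embryos injected with Kdm5b-yfp mRNA, which codes for a fluorescently tagged histone demethylase. All embryos were wild type C57BL/6NRj mice from superovulated females. Zygotes were collected 17 h after ovulation, in late S or G2 phase, and 2C samples 5.5 to 8 h after division, in late S phase. The 2C embryos grew from zygotes that had been frozen and thawed and were injected after division, whereas the zygotes had not been frozen, and libraries of the stages were made on 2 separate days. Stage therefore cannot be told apart from thawing, time of injection and library day. 2C samples 1 to 6 were single intact embryos, sample 7 held 2 blastomeres from different embryos, and samples 8 and 9 held 3 each. The row of Kdm5b itself, the injected gene of the other groups, was left out of the test.

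A fertilised mouse egg starts on RNA and protein that the oocyte stored, since the oocyte genome falls silent before ovulation. The stored mRNAs are removed in waves during maturation, in the zygote and after the first division, while the embryonic genome starts a minor wave of transcription in the zygote and a major wave in the 2C embryo. A short burst of the endogenous retrovirus MERVL and of genes such as the Zscan4 cluster marks the 2C stage.

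Zygote libraries held 12597267 to 17797581 gene counts (median 15395704.5) and 2C libraries 8705584 to 12877962 (median 10723863), so the 2C libraries were the shallower ones. A median of 15504 genes had a count in zygotes and 14875 in 2C samples. 2C samples 2 and 3 had the fewest such genes, 11841 and 12155. 2C samples 1 to 3 also carried neighbouring library indexes (85 to 87), and for several groups of genes described below they lay between the zygotes and the other 2C samples. Counts that moved by over 1.5 times without these samples are also given without them where they held 3 or more genes with or without, a choice made after the values were seen. Of 74 counts of 2 or fewer genes of a list in 1 direction, 30 changed, by 1 or 2 genes, when some single sample was left out, so such small counts should be read as approximate. No RNA of known amount was added to the libraries, so every level is a share of a library: a change in the total RNA of an embryo cannot be seen, and fewer cells of a kind and less RNA per cell cannot be told apart.

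Of 11968 genes tested, 1101 were higher in 2C samples (9.20%) and 1555 lower (13.0%). These shares are the background against which the counts of each list below are to be read. The test was edgeR's quasi-likelihood test, a gene counted as higher or lower when its p, after Benjamini-Hochberg adjustment, was under 0.05 and its level changed more than 2-fold, and these terms are used in that sense throughout. Log2 fold changes are 2C minus zygote, with their standard error (SE), and values are CPM, counts per 1000000 counts of a library after scaling. Over all genes the log2 fold change had a median of 0.02. Every 2C sample lay above every zygote for 859 genes (7.18%) and below every zygote for 1252 genes (10.5%). Such a clean separation held for 994 of the 1555 lower genes and for 297 of the 1101 higher genes. Most genes named below were picked for a small p, so their separation follows in part from that choice and is a description. Genes of the 78 functional lists used here made up 809 of the called genes, and 1847 called genes were in no list.

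The 2 directions drew on different kinds of transcripts. Lower genes had a median level of 48.1 TPM (counts per length of exon, on the same total) in zygotes and 14.6 TPM in 2C samples, while higher genes rose from a median of 1.99 to 8.05 TPM. Of the 330 genes at or under 0.5 TPM in zygotes, 61.2% were higher and 0.606% lower, and of the 1798 genes above 128 TPM, 2.17% were higher and 21.7% lower. The first of these shares is in part set by the filter on low counts, since a gene near 0 in zygotes entered the test only through the 2C samples. As a share of all TPM, the lower genes fell from a median of 18.4% in zygotes to 5.36% in 2C samples, and the higher genes went from 5.49% to 16.6%. Both shares follow from the calls and are given as a description.

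Transcript length differed too. The summed exon length of the lower genes had a median of 2132 bases, against 2829 bases for the higher genes and 3020 for all genes tested. Among genes with under 1000 bases of exon 22.0% were lower, among those with 8000 or more 2.68%, and the percentage fell in each of the 5 length classes from the shortest to the longest. For higher genes it lay between 15.1% in the shortest and 7.75% in the longest class. Genes with a single exon made up 11.0% of the higher genes (121 genes), 1.35% of the lower genes (21) and 2.68% of all genes tested. Many replication-dependent histone genes and small nucleolar RNA (snoRNA) genes are of this kind, and 14 of the 22 snoRNA genes tested were higher, none lower. Stage and library day cannot be told apart in this length trend.

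**Figure D1:**
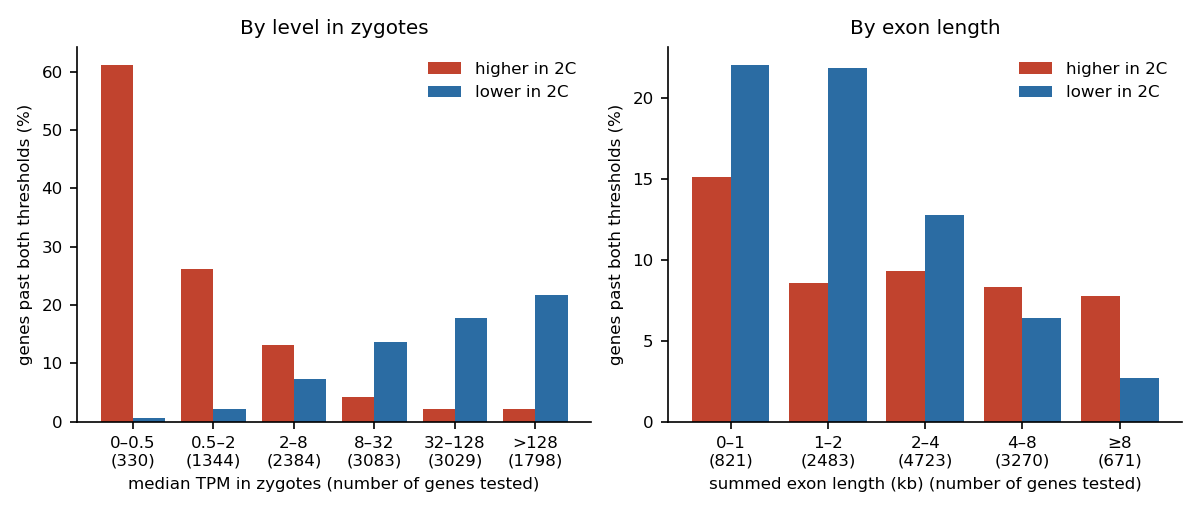
Percentage of tested genes higher (red) or lower (blue) in 2C samples, by median TPM in zygotes (left) and by summed exon length (right), with the number of genes tested under each class. Higher calls were most frequent among genes under 0.5 TPM in zygotes (61.2%), a share in part set by the filter on low counts. Lower calls were most frequent among genes above 128 TPM (21.7%) and among genes with under 2 kb of exon.

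Oocyte proteins that hold the early embryo together were among the transcripts that fell. The subcortical maternal complex is a protein assembly under the egg membrane that is needed for the first divisions, and 5 of its 8 genes (Ooep, Padi6, Nlrp5, Tle6 and Khdc3) were lower, none higher, with a median log2 fold change of -1.61. Ooep, which codes for a core subunit, was at 352, 429 and 534 CPM in zygotes (here and below the lowest, median and highest sample) and at 73.2, 113 and 193 CPM in 2C samples. Padi6, an egg member of the peptidylarginine deiminase family, was at 498, 685 and 1113 CPM in zygotes and at 156, 197 and 302 CPM in 2C samples. No 2C sample reached the lowest zygote for any of the 5 genes. The log2 fold changes were -1.81 ± 0.13 for Ooep (SE, adjusted p = 6.37e-11) and -1.81 ± 0.14 for Padi6 (adjusted p = 8.97e-11). The summed level of the list went the other way, from a median of 19990 TPM in zygotes to 25120 in 2C samples, because a single member, Zbed3, made up 14430 and 21984 TPM of it and changed by 0.61 on the log2 scale.

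Other oocyte families lay nearer to the 13.0% lower of all genes. Of 14 genes for the zona pellucida and oocyte-secreted factors 2 were lower (14.3%) and none higher (Oosp2 and Astl, the egg protease that cleaves the zona), with a median of -0.15. Of 10 Nlrp genes of the oocyte 1 was lower (10.0%), with a median of -0.16. Among 17 oocyte transcription and chromatin factors 4 were lower (23.5%) and 1 higher. H1foo, the linker histone of the oocyte, was at 477, 627 and 851 CPM in zygotes and at 91.7, 131 and 246 CPM in 2C samples, a clean separation with a log2 fold change of -2.07 ± 0.19 (adjusted p = 1.76e-09). Nobox, a homeobox factor needed for follicle growth, changed by -1.16 ± 0.11 (adjusted p = 2.71e-09). Dnmt1, the maintenance DNA methyltransferase, fell from a median of 1782 to 344 CPM, with the highest 2C sample (501 CPM) far under the lowest zygote (1277 CPM) and a log2 fold change of -2.37 ± 0.16 (adjusted p = 1.74e-11).

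Lists of genes that store, modify and remove mRNA had lower shares of 4.76% to 25.0% and higher shares of 5.00% to 14.3%, on either side of the 13.0% and 9.20% of all genes. In the list for cytoplasmic polyadenylation and mRNA storage 6 of 31 genes were lower (19.4%) and 2 higher (6.45%), with a median of -0.18. Pabpn1l, which codes for the poly(A)-binding protein of oocytes and is known for its part in maternal mRNA decay, was at 70.5, 108 and 160 CPM in zygotes and at 9.24, 14.6 and 24.0 CPM in 2C samples. Zar1l, from a small family of RNA-binding proteins of the oocyte, was at 176, 205 and 281 CPM in zygotes and at 14.5, 33.7 and 64.7 CPM in 2C samples. Pabpc1, the poly(A)-binding protein of somatic cells, moved in the opposite direction, from 3.57, 6.42 and 10.9 CPM in zygotes to 11.8, 32.4 and 104 CPM in 2C samples. The groups did not overlap for any of these 3 genes, and the log2 fold changes were -2.80 ± 0.17 for Pabpn1l (adjusted p = 3.53e-12), -2.59 ± 0.18 for Zar1l (3.21e-11) and 2.71 ± 0.34 for Pabpc1 (2.47e-07). Subunits and adaptors of the CCR4-NOT deadenylase, which shortens poly(A) tails, had 3 higher (14.3%) and 1 lower gene of 21 (4.76%), with a median of 0.06. Of 22 genes for terminal uridylation, decapping and 5′ decay 4 were lower (18.2%) and 2 higher (9.09%), and of 20 genes of the nuclear RNA exosome and its cofactors 5 were lower (25.0%, 3 with single intact 2C embryos only) and 1 higher. Their medians were -0.07 and -0.43. The summed level of the exosome list went the other way, from a median of 8229 TPM in zygotes to 11709 in 2C samples. A single member, Mphosph6, was at 6114 and 10041 TPM. Edc4, a scaffold of the decapping complex, was at 256, 274 and 366 CPM in zygotes and at 51.3, 134 and 182 CPM in 2C samples, without overlap (log2 fold change -1.30 ± 0.17, adjusted p = 5.70e-07). Whether these lists differ from each other was not tested. Among 19 writers, erasers and readers of the mRNA mark m6A 3 were lower (15.8%) and 1 higher, and 6 were lower and none higher without 2C samples 1 to 3. Mettl14, a subunit of the main m6A methyltransferase, fell from a median of 60.7 to 10.9 CPM (log2 fold change -2.38 ± 0.20, adjusted p = 6.05e-10).

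Transcripts for cell division and DNA replication were lower or not called, with few exceptions. Of 43 replication licensing and fork genes 17 were lower and none higher (median -0.61). Mcm4, a subunit of the replicative helicase, was at 153, 190 and 205 CPM in zygotes and at 47.0, 67.1 and 100 CPM in 2C samples, without overlap (log2 fold change -1.39 ± 0.11, adjusted p = 3.49e-10). Cdc6, which loads that helicase, changed by -1.73 ± 0.12 (adjusted p = 2.04e-11). Of 19 genes of the chromosomal passenger complex and spindle checkpoint 5 were lower and 1 higher (median -0.79), with 3 lower without 2C sample 5 and likewise without 2C sample 6, and of 66 spindle and kinesin genes 16 were lower and 3 higher (median -0.11). Ndc80, which couples kinetochores to microtubules, was at 109, 139 and 210 CPM in zygotes and at 5.83, 11.3 and 24.2 CPM in 2C samples. Bub1b, a checkpoint kinase, was at 408, 548 and 744 CPM in zygotes and at 51.3, 86.6 and 127 CPM in 2C samples. Both genes were separated by a wide gap, with log2 fold changes of -3.41 ± 0.22 for Ndc80 (adjusted p = 8.81e-12) and -2.66 ± 0.15 for Bub1b (1.24e-12). Kif23, a motor of the cytokinetic midzone, and Ncapg, a condensin subunit, changed by -1.80 ± 0.12 and -2.31 ± 0.17.

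Among other lists of the cell cycle and of genome upkeep, all but the anaphase-promoting complex held called genes of both directions. Their shares are set here against the 13.0% lower and 9.20% higher of all genes. Of 54 genes of DNA damage signalling and repair 13 were lower (24.1%) and 4 higher (7.41%), with a median of -0.31. Ercc5, a nuclease of excision repair, was at 27.3, 42.7 and 53.6 CPM in zygotes and at 1.64, 3.10 and 8.21 CPM in 2C samples, and Xrcc6, a subunit of the Ku end-binding protein, was at 72.6, 102 and 125 CPM in zygotes and at 5.51, 15.2 and 26.2 CPM in 2C samples. Chek2, a checkpoint kinase, was at 0.825, 2.66 and 5.07 CPM in zygotes and at 5.39, 8.54 and 20.8 CPM in 2C samples. The groups did not overlap for these 3 genes, and the log2 fold changes were -3.13 ± 0.27 for Ercc5 (adjusted p = 6.05e-10), -2.71 ± 0.21 for Xrcc6 (2.04e-10) and 2.02 ± 0.35 for Chek2 (2.21e-05). In the list for meiosis and entry into M phase 7 of 28 genes were lower and 1 higher, with Ccnb3, which codes for cyclin B3, falling from a median of 97.3 to 30.4 CPM (-1.54 ± 0.15, adjusted p = 5.30e-09). The anaphase-promoting complex had 3 lower (16.7%) and none higher of 18, and cohesin and condensin 4 lower (14.3%) and 3 higher (10.7%) of 28, near the shares of all genes, with 7 lower without 2C samples 1 to 3 and none higher with no filter on low counts.

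Regulators of the G1 and S phases went the other way: 7 of 28 were higher, 1 lower, with a median of 0.58. Ccne1, which codes for cyclin E1, was at 4.46, 8.50 and 12.5 CPM in zygotes and at 10.7, 47.4 and 147 CPM in 2C samples, where 8 of 9 samples lay above the highest zygote (log2 fold change 2.79 ± 0.33, adjusted p = 1.19e-07). E2f8, a repressor of the E2F family, rose by 1.40 ± 0.17 on the log2 scale (adjusted p = 1.73e-07), with every 2C sample above every zygote.

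Genes that build ribosomes and charge tRNA fell in large numbers. Of 85 genes for ribosomal RNA processing and other nucleolar proteins 41 were lower and 4 higher (median -0.87), and their summed level fell from a median of 10444 TPM in zygotes (9302 to 11663) to 4349 TPM in 2C samples (3811 to 7383). Of 22 aminoacyl-tRNA synthetase genes, which attach amino acids to tRNAs, 12 were lower and none higher (median -1.07), with a summed level of 2063 TPM in zygotes and 1173 TPM in 2C samples. Of 75 mitochondrial ribosomal protein genes 34 were lower and 2 higher (median -0.99). All these lower shares exceeded the 13.0% of all genes. Without 2C samples 1 to 3, the lower counts were 45, 12 and 33. The 3 samples with the highest nucleolar sums among the 2C libraries were samples 1 to 3.

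Gnl2, which codes for a nucleolar GTPase of the large ribosomal subunit pathway, was at 83.4, 122 and 176 CPM in zygotes and at 8.55, 12.9 and 36.0 CPM in 2C samples. Nat10, an acetyltransferase for ribosomal RNA, was at 97.9, 110 and 139 CPM in zygotes and at 11.7, 23.4 and 38.1 CPM in 2C samples. Rars, the arginyl-tRNA synthetase, was at 62.1, 108 and 142 CPM in zygotes and at 3.23, 10.4 and 16.8 CPM in 2C samples. All 9 2C samples were below all 10 zygotes for these genes. The log2 fold changes were -2.98 ± 0.23 for Gnl2 (adjusted p = 1.36e-10), -2.19 ± 0.17 for Nat10 (2.10e-10) and -3.34 ± 0.23 for Rars (1.62e-11). Taf1a and Taf1b, subunits of the factor that brings RNA polymerase I to ribosomal DNA, changed by -2.68 ± 0.15 and -2.77 ± 0.23, although the list of RNA polymerase I and III subunits as a whole had 7 lower (18.9%) and 6 higher genes (16.2%, 3 under a filter at a mean of 50 counts) of 37.

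Cytosolic ribosomal proteins were divided: 23 of 84 genes were lower and 14 higher, with a median of -0.59. Rpl21 was at 56.4, 87.7 and 135 CPM in zygotes and at 13.0, 19.8 and 27.5 CPM in 2C samples, whereas Rplp1, of the ribosomal stalk, rose from a median of 7.12 to 32.1 CPM, its highest zygote at 9.19 and its lowest 2C sample at 12.2 CPM. Neither gene had overlapping groups, and the log2 fold changes were -2.21 ± 0.16 (adjusted p = 3.19e-11) and 2.39 ± 0.22 (2.34e-09). These genes have many processed pseudogenes in the genome, and fragments that mapped to several places were not counted, so their levels are uncertain. Among 61 initiation and elongation factors 18 were lower and 4 higher, with Eif2b4, a subunit of the exchange factor for eIF2, at -2.17 ± 0.15 (adjusted p = 2.13e-11).

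Proteins that fold and destroy other proteins formed the next group. Of 42 proteasome genes 23 were lower and 1 higher (median -1.27), and the summed level fell from a median of 6652 TPM in zygotes (5870 to 7306) to 3788 TPM in 2C samples (3359 to 4212), without overlap. Psma4, a subunit of the catalytic core, was at 108, 146 and 197 CPM in zygotes and at 22.2, 28.4 and 41.3 CPM in 2C samples (log2 fold change -2.31 ± 0.14, adjusted p = 2.04e-12). Of 15 chaperonin and prefoldin genes, which fold actin and tubulin, 8 were lower and 1 higher (median -1.02). The exception was Cct6a, which rose from 0.165, 1.38 and 2.28 CPM in zygotes to 4.03, 15.8 and 39.3 CPM in 2C samples, while Cct5 of the same ring changed by -1.41 ± 0.11 (adjusted p = 2.58e-10). Hsp90aa1, the inducible HSP90, was at 1835, 2359 and 2665 CPM in zygotes and at 306, 468 and 1177 CPM in 2C samples, and Hspa2, a member of the HSP70 family, was at 4.65, 10.5 and 16.0 CPM in zygotes and at 25.9, 57.4 and 149 CPM in 2C samples. Groups did not overlap for either, with log2 fold changes of -1.95 ± 0.19 (adjusted p = 3.94e-09) and 2.79 ± 0.27 (5.19e-09). Their list of 28 heat shock and cold-shock genes had 6 lower and 2 higher.

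F-box proteins choose the targets of cullin ubiquitin ligases. Of 80 cullin and F-box genes 22 were lower (27.5%, against 13.0% of all genes) and 2 higher (2.50%, against 9.20%), with a median of -0.22. A cluster of Fbxw genes on chromosome 9 held 13 neighbouring tested genes that were all lower (GRCm38, chr9:109139454-109790650), the longest run of neighbouring tested genes called in 1 direction. Fbxw15, one of them, was at 217, 241 and 271 CPM in zygotes and at 40.7, 63.3 and 111 CPM in 2C samples (log2 fold change -1.91 ± 0.14, adjusted p = 4.11e-11), and Fbxw21 at the cluster's end changed by -1.88 ± 0.14. These genes are close copies of each other, so counts may be split between them. As F-box genes of 1 locus they weigh heavily on the lower count of the list, whose share without them was not computed. Ubiquitin-conjugating enzymes had 4 lower and none higher of 38, and autophagy genes 3 lower and 1 higher of 32.

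The nuclear and the mitochondrial genomes moved apart in the respiratory chain, whose enzymes are built from subunits of both. Of 77 nuclear-encoded genes 27 were lower and 4 higher (median -0.87), and their summed level fell from a median of 5387 TPM in zygotes to 3246 TPM in 2C samples. The higher count was 7 without 2C samples 1 to 3, 1 without 2C sample 7, and 2 without 2C sample 4 or 5 or zygote 2, 3, 4, 7, 8 or 9. Sdhd, a membrane anchor of complex II, was at 29.3, 32.3 and 40.7 CPM in zygotes and at 2.91, 6.00 and 11.1 CPM in 2C samples (log2 fold change -2.43 ± 0.21, adjusted p = 7.23e-10). Of the 12 mitochondrially encoded transcripts tested (13 in the table, ND3 under the filter) 11 were higher, with a median of 1.88, and 11 were also higher without 2C samples 1 to 3, but 7 when a mean of 50 counts was required. ND2, a subunit of complex I, was at 514, 958 and 1115 CPM in zygotes and at 1930, 3176 and 5975 CPM in 2C samples, without overlap (log2 fold change 1.96 ± 0.20, adjusted p = 9.32e-09). The remaining transcript was ND6, the one protein-coding mRNA read from the light strand: it was at 172, 243 and 340 CPM in zygotes and at 238, 464 and 746 CPM in 2C samples, where 6 of 9 lay above the highest zygote (log2 fold change 0.87 ± 0.18, adjusted p = 0.000262). Whether ND6 changed by less than the others was not tested.

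The summed level of the mitochondrially encoded transcripts was 13370, 22408 and 25366 TPM in zygotes and 35872, 65486 and 103259 TPM in 2C samples. No groups overlapped, but the 2C samples were spread widely: samples 1 to 3 had the 3 lowest sums (35872, 37300 and 39109 TPM) and samples 4 to 9 lay between 52305 and 103259 TPM. In those 3 samples the nucleolar and synthetase sums were also the nearest to the zygotes. Enzymes of the citric acid cycle had 4 lower and none higher of 21 genes (median -0.66), and 9 were lower without 2C samples 1 to 3. Idh3a, a subunit of isocitrate dehydrogenase, changed by -1.22 ± 0.11 (adjusted p = 2.16e-09).

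**Figure D2:**
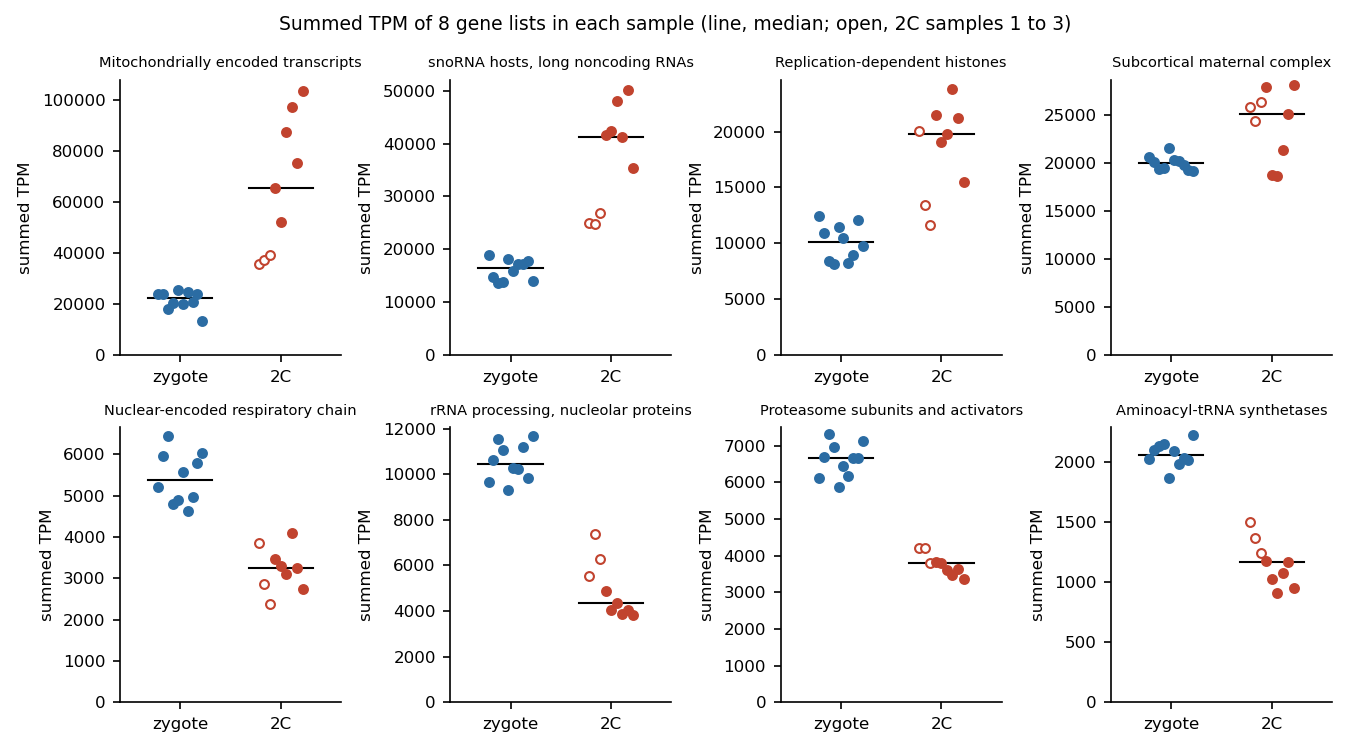
Summed TPM of the members of 8 gene lists in each of 10 zygotes (blue) and 9 2C samples (red), with the group medians as lines and 2C samples 1 to 3 as open circles. Mitochondrially encoded transcripts, histones and noncoding RNAs had higher medians in 2C samples, and the proteasome, nucleolar, synthetase and nuclear respiratory chain sums lay lower without overlap. The subcortical maternal complex sum followed its most abundant member, Zbed3.

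The families known for the 2C stage rose together. The 4 tested genes of the Zscan4 cluster were higher (median 5.37), as were the 5 Usp17-like deubiquitinases (4.10), 7 of 8 Eif1a-like genes (7.66), the 4 tested Tdpoz and Tdpoz-like genes (Tdpoz1, Tdpoz3, Gm4858 and Gm10696) and 15 of 19 Tcstv and other genes linked to the factor DUX (3.34, with 1 lower). Zscan4d, a zinc finger gene known for telomere maintenance, was at 1.55, 4.60 and 8.97 CPM in zygotes and at 10.2, 57.7 and 90.7 CPM in 2C samples. Gm8300, an Eif1a-like gene, was at 0, 0.0823 and 1.14 CPM in zygotes and at 11.6, 43.9 and 86.9 CPM in 2C samples. Zfp352, a zinc finger gene known as a 2C marker, was at 0, 1.71 and 7.47 CPM in zygotes and at 56.5, 70.9 and 192 CPM in 2C samples. All 9 2C samples exceeded all 10 zygotes for these genes, with log2 fold changes of 3.41 ± 0.36 (adjusted p = 1.91e-08), 7.83 ± 0.53 (1.78e-11) and 5.32 ± 0.52 (5.85e-09). Usp17lc, a deubiquitinase, rose from a median of 7.00 to 86.1 CPM (3.92 ± 0.38, adjusted p = 3.80e-09). Members of these families share most of their sequence and fragments with several matches were not counted, so the level of each member is uncertain. A member near 0 in zygotes entered the test only through the 2C samples. The higher shares and medians of these families are therefore in part set by the filter on low counts. Some genes of the families had too few counts to be tested. With no filter on low counts the higher genes numbered 8 instead of 4 in the Tdpoz list and 10 instead of 7 among the Eif1a-like genes (7 and 10 with DESeq2's test). The Tdpoz list also holds the related BTB genes Spop and Spopl, which were not called.

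Not all of these families rose as a whole. Of 7 Obox homeobox genes 2 were higher and 1 lower: Obox6 went from a median of 0.381 to 7.63 CPM (4.90 ± 0.58, adjusted p = 1.01e-07), Obox3 changed by 5.42 ± 0.72, and Obox2, at 820 CPM in zygotes, fell to 366 CPM (-1.07 ± 0.18). 2C samples 1 and 3, at 665 and 680 CPM, overlapped the zygotes, whose lowest was 655 CPM, sample 2 was at 529 CPM, and samples 4 to 9 lay between 237 and 367 CPM. Obox2 was not called with single intact 2C embryos only. Of 10 Pramel and oogenesin genes 3 were higher (6 with no filter on low counts) and 1 lower. Pramef25 rose from a median of 0.279 to 23.4 CPM (5.95 ± 0.60, adjusted p = 7.94e-09), and Oog4, an oogenesin, fell from 378 to 91.1 CPM (-1.78 ± 0.20, adjusted p = 4.24e-08). Neighbouring members were often called together, with 7 tested genes in a row higher at the Tcstv cluster (chr13:119893387-120318261), 4 at the Zscan4 cluster (chr7:10794241-11402318), 4 Eif1a-like genes (chr12:87772425-87896722) and 4 Tcl1b genes (chr12:105159704-105206993).

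A short sequence recurred in front of some of the genes that rose. The 250 bases before the start of each gene, from RefSeq's promoter table for GRCm38.p6, were available for 843 of the 1101 higher and 1235 of the 1555 lower genes, 9595 of all genes tested. Of 96 runs of 12 bases found before at least 6 higher genes, ACACACCTTTAA had the highest ratio of higher to other genes. It stood in the sense orientation before 8 higher genes (0.949%), before no lower gene, and before 3 genes that were not called. Over the 32851 promoters in the table it was found in 38 (0.116%), or in 42 (0.128%) on either strand. The run was picked with the calls known, so these shares are a description and no test was made. The 8 genes were Zfp352, AF067061 of the Tcstv cluster, the Tdpoz and Tdpoz-like genes Tdpoz1, Gm4858 and Gm10696, Gm12789, Gm4567 and Pemt, and the uncalled ones were Zbed3, Sp110 and Ocm. The 150 bases before the start of 4 of them are shown to let the run be seen in place, 5′ to 3′ along each gene, with the run in capitals. In Gm4858 and Zfp352 it lies in this stretch more than once.
Zfp352, chr4:90218670-90218819, plus strand: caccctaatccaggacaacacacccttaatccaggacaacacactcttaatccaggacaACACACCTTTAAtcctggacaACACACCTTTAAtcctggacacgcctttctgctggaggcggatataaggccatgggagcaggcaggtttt
AF067061, chr13:120262945-120263094, plus strand: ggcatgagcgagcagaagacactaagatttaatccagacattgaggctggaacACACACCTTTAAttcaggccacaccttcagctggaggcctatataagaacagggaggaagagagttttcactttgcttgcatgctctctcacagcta
Gm4858 (Tdpoz8 in RefSeq), chr3:93068673-93068822, plus strand: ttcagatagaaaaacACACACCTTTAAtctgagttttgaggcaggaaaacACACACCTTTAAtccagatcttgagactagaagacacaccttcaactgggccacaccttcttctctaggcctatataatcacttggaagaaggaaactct
Gm12789, chr4:101986690-101986839, plus strand: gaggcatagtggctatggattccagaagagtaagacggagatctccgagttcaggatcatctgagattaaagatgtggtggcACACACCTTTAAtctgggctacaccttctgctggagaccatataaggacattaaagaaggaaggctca

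AF067061 was at 0, 0 and 0.313 CPM in zygotes and at 3.82, 6.57 and 24.1 CPM in 2C samples, and Gm12789 was at 0, 0 and 0.330 CPM in zygotes and at 2.75, 12.5 and 54.4 CPM in 2C samples, both without overlap. Related copies of a gene can carry related promoters, so Tdpoz1, Gm4858 and Gm10696 are not independent examples of the run.

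Replication-dependent histone genes were often higher, and none of those tested was lower. They supply the bulk histones of S phase, their mRNAs lack a poly(A) tail, and random priming of total RNA captures them. Of 50 genes tested 29 were higher and none lower (median 1.18), and 37 were higher without 2C samples 1 to 3. The summed level was 8187, 10094 and 12402 TPM in zygotes and 11603, 19786 and 23824 TPM in 2C samples, where 1 of the 2C samples lay within the zygotes' range. Hist2h2ac, an H2A gene, was at 0.248, 3.17 and 6.71 CPM in zygotes and at 17.2, 36.1 and 94.5 CPM in 2C samples (log2 fold change 3.73 ± 0.36, adjusted p = 4.56e-09). Hist1h2bj, an H2B gene that zygotes already held in quantity, was at 49.2, 57.8 and 80.7 CPM in zygotes and at 94.3, 125 and 182 CPM in 2C samples (1.12 ± 0.12, adjusted p = 2.42e-08), but was not called with single intact 2C embryos only. Neither gene had overlapping groups. The variant H2afz (H2A.Z), which is used outside S phase as well, rose from 2.54, 3.56 and 6.38 CPM in zygotes to 13.5, 20.4 and 58.2 CPM in 2C samples (2.66 ± 0.29, adjusted p = 2.45e-08), the reverse of H1foo in the same list of variants, where 4 of 12 genes were higher (2 without 2C sample 4) and 1 lower. Near-identical copies make the level of a single histone gene uncertain.

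Of 45 histone promoters found in the RefSeq table, which runs from 250 bases before to 50 after the start, 39 held the CCAAT box (letters CCAAT, either strand, 86.7%) and 24 held TATAAA (53.3%). Of the 27025 genes that had a promoter there, CCAAT was held by 37.9% and TATAAA by 14.2%. Among higher genes of any kind 47.6% held CCAAT, among lower genes 40.3%, and among genes not called 39.2%. A match of letters is no sign of binding. On chromosome 13, 7 neighbouring histone genes were all higher (chr13:21716412-21832158), and 3 of their promoters are shown over the 150 bases before the start, with CCAAT or its reverse complement ATTGG in capitals. Each stretch holds 3 or 4 copies.
Hist1h2ai (H2ac13 in RefSeq), chr13:21716262-21716411, plus strand: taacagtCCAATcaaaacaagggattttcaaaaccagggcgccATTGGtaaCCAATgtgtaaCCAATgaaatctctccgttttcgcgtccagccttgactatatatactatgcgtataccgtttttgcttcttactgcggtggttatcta
Hist1h2bm (H2bc14 in RefSeq), chr13:21721894-21722043, plus strand: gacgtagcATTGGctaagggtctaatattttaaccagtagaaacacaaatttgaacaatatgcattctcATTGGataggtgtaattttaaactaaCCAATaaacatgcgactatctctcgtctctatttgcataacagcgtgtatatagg
Hist1h2ak (H2ac15 in RefSeq), chr13:21753913-21754062, minus strand: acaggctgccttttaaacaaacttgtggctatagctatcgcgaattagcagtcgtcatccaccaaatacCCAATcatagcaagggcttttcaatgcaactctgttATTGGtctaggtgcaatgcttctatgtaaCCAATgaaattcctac

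Hist1h2ai was at 0, 0.247 and 0.949 CPM in zygotes and at 1.52, 5.99 and 18.6 CPM in 2C samples, Hist1h2bm at 0.939, 1.46 and 2.63 CPM and at 3.19, 7.61 and 13.7 CPM, and Hist1h2ak at 0.120, 0.549 and 2.40 CPM and at 3.15, 10.4 and 16.9 CPM. All 2C samples were above all zygotes for these neighbours. Their log2 fold changes were 4.43 ± 0.66 (adjusted p = 3.40e-06), 2.46 ± 0.31 (3.49e-07) and 3.77 ± 0.47 (2.18e-07).

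Structural noncoding RNAs were among the most abundant transcripts that rose. Rn7sk, the 7SK RNA that holds the elongation kinase P-TEFb inactive, was at 1050, 1312 and 1621 CPM in zygotes and at 1925, 3349 and 4430 CPM in 2C samples (1.28 ± 0.14, adjusted p = 1.83e-08). Rpph1, the RNA of ribonuclease P, was at 295, 387 and 548 CPM in zygotes and at 583, 1016 and 1382 CPM in 2C samples (1.36 ± 0.13, adjusted p = 5.32e-09). Malat1, a long noncoding RNA of nuclear speckles, rose from a median of 20.8 to 89.6 CPM (1.99 ± 0.24, adjusted p = 1.63e-07). No groups overlapped for these 3 genes. In the list of snoRNA host genes and long noncoding RNAs 6 of 16 were higher and 1 lower, with a summed level of 16566 TPM in zygotes and 41320 TPM in 2C samples, of which Rn7sk was 12059 and 29889 TPM.

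Hexim1, the protein through which 7SK RNA inhibits P-TEFb, rose with it from 1.20, 3.92 and 8.14 CPM in zygotes to 31.6, 47.2 and 90.7 CPM in 2C samples (3.66 ± 0.32, adjusted p = 1.12e-09), without overlap. Pause release and elongation factors had 3 higher and 6 lower genes of 34. Among RNA polymerase II subunits and general transcription factors 12 of 43 were lower and 3 higher, with Polr2a, the largest subunit, among the higher: it was at 42.7, 56.2 and 70.6 CPM in zygotes and at 79.5, 143 and 199 CPM in 2C samples (1.21 ± 0.15, adjusted p = 1.48e-07). Mediator had 8 lower and 2 higher of 33, and the spliceosome 17 lower and 4 higher of 60. The spliceosome had 2 higher without 2C sample 4 and 7 higher with single intact 2C embryos only. Sf3a3, a subunit of the U2 particle, fell from a median of 149 to 27.0 CPM (-2.41 ± 0.14, adjusted p = 2.12e-12), and Clk1, a kinase of splicing factors, from 229 to 31.5 CPM (-2.68 ± 0.16, adjusted p = 3.14e-12). The hnRNP proteins had 4 higher and 2 lower genes of 31.

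Early embryonic transcription factors had 11 higher and 1 lower gene of 41 (median 0.54). Klf5, needed for the first lineages of the blastocyst, was at 0, 0.957 and 3.53 CPM in zygotes and at 9.07, 25.2 and 83.6 CPM in 2C samples. Yy1, a broadly expressed zinc finger factor, was at 4.80, 8.33 and 13.9 CPM in zygotes and at 18.3, 34.2 and 80.7 CPM in 2C samples. Every 2C sample was above every zygote for both, with log2 fold changes of 4.53 ± 0.49 (adjusted p = 2.42e-08) and 2.30 ± 0.27 (7.80e-08). Esrrb, a nuclear receptor of the pluripotency network, was the lower one, at -1.01 ± 0.18, beside the fold threshold: it was not called with DESeq2's Wald test, nor without any one of 2C samples 3, 4, 8 and 9 or zygotes 2 and 8, although every 2C sample lay below every zygote. Zinc finger proteins of the Zfp series, the largest family, had 45 higher (15.8%) and 42 lower (14.7%) of 285 genes, with a median of 0.15. The counts were 54 and 53 without 2C samples 1 to 3, but 23 and 36 under a filter at a mean of 50 counts.

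**Figure D3:**
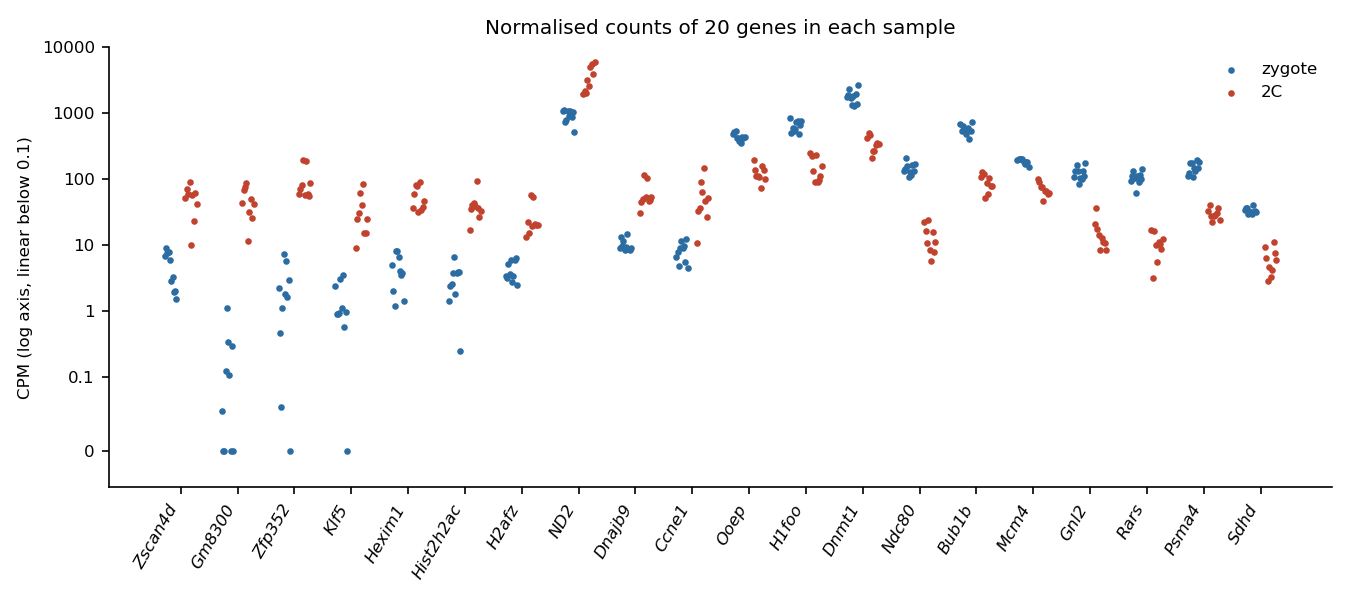
CPM of 20 genes in each zygote (blue) and each 2C sample (red) on a log axis that is linear below 0.1 CPM. The 10 genes on the left were higher and the 10 on the right lower in 2C samples, and only Ccne1 has a 2C sample within the zygotes' range.

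Lists of stress and cell death programmes held a few higher genes each. Of 27 p53 targets and apoptosis genes 6 were higher (22.2%, against 9.20% of all genes) and none lower (median 0.36), and of 23 genes of the integrated stress and unfolded protein responses 5 were higher (21.7%) and none lower (median -0.12), with 2 lower without 2C sample 5 and likewise without 2C samples 1 to 3. Each list had 3 higher genes under a filter at a mean of 50 counts. By adjusted p alone, with no fold threshold, 11 genes of the first list rose and 5 fell, and 7 of the second went each way. The summed level was 5331 TPM in zygotes and 5301 TPM in 2C samples for the first list (medians). For the second it fell from 3993 to 2865 TPM. Dnajb9, a chaperone of the endoplasmic reticulum, was at 8.48, 9.24 and 14.8 CPM in zygotes and at 31.2, 49.6 and 117 CPM in 2C samples (2.58 ± 0.21, adjusted p = 2.77e-10). Mcl1, an antagonist of apoptosis, rose from a median of 8.07 to 29.8 CPM (1.92 ± 0.23, adjusted p = 1.60e-07). Sesn2, a stress sensor on both lists, rose from a median of 2.68 to 17.5 CPM (2.94 ± 0.37, adjusted p = 3.15e-07). No groups overlapped for these genes. The 2C embryos had been thawed and the zygotes had not, and the part of thawing was not tested.

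Signalling lists held few called genes each. Of 27 Wnt genes 2 were higher (7.41%, against 9.20% of all genes), the receptors Fzd5 and Fzd4, and 1 lower (3.70%, against 13.0%). Fzd5 was at 0.124, 0.831 and 2.91 CPM in zygotes and at 8.24, 20.4 and 42.4 CPM in 2C samples (4.32 ± 0.47, adjusted p = 2.55e-08), and Fzd4 was at 0, 0.965 and 2.50 CPM in zygotes and at 7.74, 20.7 and 37.7 CPM in 2C samples (4.28 ± 0.48, adjusted p = 4.52e-08). For neither receptor did the groups overlap. Receptor tyrosine kinase, Ras and PI3K signalling had 4 higher (10.3%) and 1 lower gene of 39 (2.56%), with a median of 0.47: Dusp6, a phosphatase that acts on ERK, rose by 2.41 ± 0.44 (adjusted p = 6.01e-05), and the receptor Fgfr2 fell by 1.12 on the log2 scale (SE 0.15, adjusted p = 4.96e-07). Rab GTPases and vesicle fusion genes had 2 higher and 1 lower of 61 and chromatin remodellers 1 of each of 38, shares of 1.64% to 3.28% in either direction. Without 2C samples 1 to 3 the Rab list had 6 higher and 3 lower. TGF-beta and BMP signalling had 3 higher (15.8%, 1 under a filter at a mean of 50 counts) and none lower of 19, and calcium signalling and egg activation 4 lower (17.4%) and none higher of 23.

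Lists of chromatin enzymes held a few called genes each. Histone acetylation had 1 higher (3.45%) and 3 lower genes (10.3%) of 29, Polycomb 2 (6.67%) and 3 (10.0%) of 30, and H3K9 methylation 4 (19.0%) and 1 (4.76%) of 21, against 9.20% and 13.0% of all genes. H3K4 methyltransferases had 1 higher and 2 lower of 19, the H3K4 demethylases without Kdm5b 1 and none of 6, DNA methylation and demethylation 3 and 1 of 16, and histone chaperones 1 of each of 22 (4.55%). Without 2C samples 1 to 3, 5 acetylation genes, 4 H3K4 methyltransferase genes and 7 histone chaperone genes were lower and 4 Polycomb genes higher, and 3 chaperone genes were lower without any one of these samples. The small RNA pathway had 2 higher and 4 lower of 28, among them Tdrd5, a germline Tudor protein, which fell from a median of 147 to 30.5 CPM (-2.30 ± 0.14, adjusted p = 4.06e-12). Suv39h1, an H3K9 methyltransferase, rose from 0, 0.464 and 1.96 CPM in zygotes to 3.35, 6.20 and 32.1 CPM in 2C samples (3.71 ± 0.57, adjusted p = 5.34e-06), and Kdm3a, an H3K9 demethylase, rose from 5.65, 8.94 and 15.8 CPM to 22.0, 30.4 and 64.5 CPM (1.88 ± 0.22, adjusted p = 9.94e-08). Hdac1, a histone deacetylase, rose by 2.18 ± 0.28 (adjusted p = 3.46e-07), and Tet1, which oxidises methylated cytosine, by 2.15 ± 0.38 (adjusted p = 2.99e-05). A writer and an eraser of H3K9 methylation thus both rose, and the stages did not overlap for Suv39h1, Kdm3a, Hdac1 or Tet1.

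Apart from the citric acid cycle, metabolic lists had called genes in both directions. In nucleotide and one-carbon metabolism 6 genes were higher (18.8%) and 7 lower (21.9%) of 32. Prps1, which makes the ribose donor for all nucleotides, rose from 0.438, 1.47 and 3.48 CPM in zygotes to 7.91, 31.4 and 114 CPM in 2C samples (4.60 ± 0.47, adjusted p = 1.09e-08), while Gmps, the last enzyme of GMP synthesis, fell from 115, 131 and 157 CPM to 16.9, 19.8 and 32.5 CPM (-2.52 ± 0.13, adjusted p = 4.67e-13). Sterol and fatty acid synthesis had 7 higher (23.3%, 3 under a filter at a mean of 50 counts) and 3 lower (10.0%) of 30. Sqle, the epoxidase of sterol synthesis, rose by 1.55 ± 0.17, whereas Srebf1, a regulator of lipid synthesis genes, changed by -1.10 ± 0.16. Glycolysis and pyruvate metabolism had 4 lower and 1 higher of 28 (7 lower without 2C samples 1 to 3 and 3 higher without 2C sample 2), and Pdha1, a subunit of pyruvate dehydrogenase, fell from a median of 80.1 to 37.2 CPM (-1.22 ± 0.12, adjusted p = 5.61e-09). Of 198 solute carriers 19 were higher (9.60%, the share of all genes being 9.20%) and 15 lower (7.58%). The higher count was 5 under a filter at a mean of 50 counts and 12 with the replicate number as a block, and with no filter 30 were higher and 37 lower. The smallest p among the higher ones belonged to the phosphate transporter Slc34a2, which rose from a median of 1.33 to 44.2 CPM (5.11 ± 0.44, adjusted p = 5.88e-10).

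**Figure D4:**
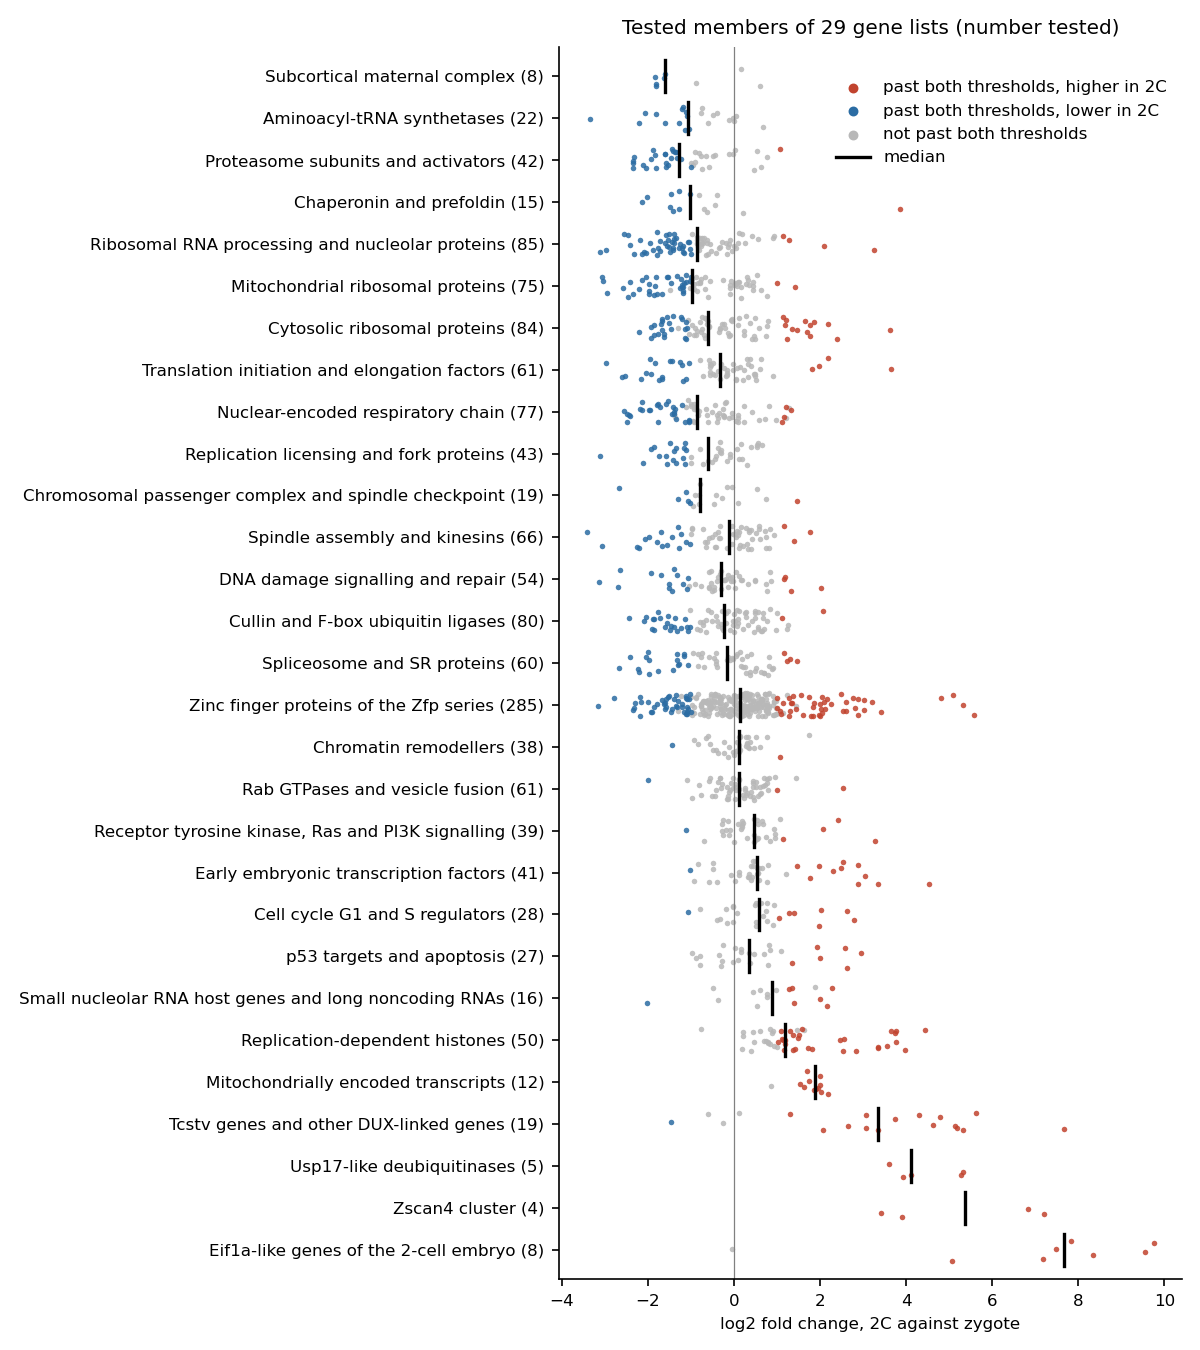
Log2 fold change (2C against zygote) of every tested member of 29 gene lists, with members higher in 2C samples in red, lower in blue, not called in grey, and the median of each list as a black line. Lists at the top have medians as low as -1.61 and those at the bottom as high as 7.66, against 0.02 for all genes tested.

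Promoters of lower genes held one of the searched motifs more often than other promoters did. The ETS motif CCGGAAGT (either strand, 250 bases before to 50 after the start) was present in 13.9% of 1235 lower genes, 5.81% of 843 higher genes and 8.38% of 7517 genes that were not called. Of the 27025 genes that had a promoter in the table, 4.00% held it. As lower and higher genes differed in level, the comparison was repeated among genes with a zygote median above 32 TPM. There 14.6% of 739 lower genes, 10.7% of 75 higher genes (8 genes) and 8.48% of 3112 uncalled genes held it. The higher genes thus had the lowest percentage over all levels but not among abundant genes. By list it was found in 31.9% of 72 nucleolar genes, 25.0% of 36 proteasome genes, 25.0% of 36 RNA polymerase II and general factor genes and 22.9% of 35 replication genes, and in none of 45 histone genes. The GC box GGGGCGGGG went the other way, with 17.8% of lower and 22.8% of uncalled genes. The NRF1 motif was found in 3.00% of lower and 2.00% of uncalled genes, and the DUX motif in none of the 843 higher genes and in 2 uncalled ones. The CHR motif TTTGAAT was found in 3.81% of lower, 2.57% of uncalled and 4.39% of higher genes. The ETS letters are part of none of the other motifs, but neighbouring matches may share bases. A match is a description of the sequence, and genes within a list are related by function, so no test was made. Of each of the 4 lists the lower gene with the smallest p that held the motif before its start is shown, over the 150 bases before the start, with CCGGAAGT or its reverse complement ACTTCCGG in capitals.
Ltv1, chr10:13193138-13193287, minus strand: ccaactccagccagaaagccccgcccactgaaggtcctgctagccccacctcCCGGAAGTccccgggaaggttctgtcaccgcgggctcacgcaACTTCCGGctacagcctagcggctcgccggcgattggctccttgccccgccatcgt
Psmd12, chr11:107479378-107479527, plus strand: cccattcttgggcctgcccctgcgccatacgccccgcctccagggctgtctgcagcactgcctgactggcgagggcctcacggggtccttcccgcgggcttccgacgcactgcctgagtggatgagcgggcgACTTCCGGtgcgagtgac
Rfc3, chr5:151651209-151651358, minus strand: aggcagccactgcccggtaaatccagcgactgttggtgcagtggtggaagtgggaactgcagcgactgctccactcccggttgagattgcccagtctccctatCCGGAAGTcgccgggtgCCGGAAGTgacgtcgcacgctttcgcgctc
Gtf2f1, chr17:57011289-57011438, minus strand: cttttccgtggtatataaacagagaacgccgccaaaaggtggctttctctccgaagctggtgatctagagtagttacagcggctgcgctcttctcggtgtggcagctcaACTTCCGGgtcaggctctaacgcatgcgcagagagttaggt

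Ltv1, a factor of small ribosomal subunit assembly, was at 86.3, 123 and 163 CPM in zygotes and at 19.9, 31.8 and 50.1 CPM in 2C samples (-1.96 ± 0.16, adjusted p = 3.15e-10). Psmd12, of the proteasome lid, was at 86.4, 117 and 140 CPM and at 12.7, 23.3 and 38.5 CPM (-2.34 ± 0.16, adjusted p = 2.88e-11), Rfc3, of the clamp loader, at 31.6, 38.2 and 43.2 CPM and at 4.24, 7.61 and 18.7 CPM (-2.11 ± 0.21, adjusted p = 7.94e-09), and Gtf2f1, of the general factor TFIIF, at 164, 191 and 250 CPM and at 49.2, 67.8 and 147 CPM (-1.35 ± 0.16, adjusted p = 9.27e-08). All 9 2C samples were below all 10 zygotes for each of them.

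Repeats were counted in a separate table. Of 2635 repeats tested, 103 were higher in 2C samples (3.91%) and 149 lower (5.65%) when scaled to the repeat counts themselves. Repeat counts made up more of the 2C libraries, with 30.9, 34.5 and 42.4 repeat counts per 100 gene counts in zygotes and 41.1, 57.6 and 63.9 in 2C samples. When the repeats were scaled to the gene counts instead, 247 of 2604 were higher (9.49%) and 80 lower (3.07%), and the log2 fold change had a median of 0.35 over all repeats instead of 0.06. A direction for a whole class therefore depends on the scaling unless it is large against that shift.

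MERVL and its LTR exceeded it by far. All 3 repeats of this retrovirus were higher under both scalings (median 3.54, or 3.83 scaled to genes), and as a share of all repeat counts they made up 0.0799%, 0.378% and 1.49% in zygotes and 4.38%, 9.23% and 21.0% in 2C samples. MT2_Mm, the LTR, was at 437, 680 and 1430 CPM of the repeat counts in zygotes and at 3505, 6359 and 16298 CPM in 2C samples (3.33 ± 0.27, adjusted p = 1.77e-09). ORR1A0-int, from a related but older LTR class, was at 86.8, 114 and 153 CPM in zygotes and at 572, 1643 and 4659 CPM in 2C samples (4.02 ± 0.28, adjusted p = 1.81e-10), although 26 of 29 repeats of that class were not called. GSAT_MM, the major satellite of pericentromeric heterochromatin, was at 19.5, 70.6 and 149 CPM in zygotes and at 225, 548 and 4300 CPM in 2C samples (3.87 ± 0.49, adjusted p = 1.61e-06). The groups did not overlap for any of these 3 repeats.

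Young L1 elements had 8 higher of 30 and none lower (median 0.49), or 12 higher when scaled to genes (median 0.79). IAP elements had 4 higher of 25 and none lower (median 0.64), or 9 higher when scaled to genes (median 0.95). L1MdA_I rose from 8.69, 29.6 and 52.5 CPM in zygotes to 37.5, 119 and 161 CPM in 2C samples, with 8 of 9 above the highest zygote (1.84 ± 0.24, adjusted p = 2.93e-06). The summed level of young L1 depended on the scaling, with medians of 1.68% of all repeat counts in zygotes and 1.54% in 2C samples, but 5585 and 9630 per 1000000 gene counts. MT LTRs, which drive many oocyte transcripts, were the largest class by share at medians of 39.3% and 35.3% of repeat counts (128467 and 187550 per 1000000 gene counts), with 1 of 20 lower and none higher. That one, MTB_Mm-int, fell from a median of 706 to 251 CPM (-1.46 ± 0.12, adjusted p = 1.68e-09). B1, B2 and B4 SINEs had no called member among 15, 5 and 8 (2, 2 and 0 higher when scaled to genes), and B1_Mus1, at 0.71 ± 0.09, had the smallest p among B1. 7SLRNA, the RNA of the signal recognition particle, was by itself at 39136, 48527 and 67987 CPM in zygotes and at 65919, 110407 and 142415 CPM in 2C samples (1.08 ± 0.12, adjusted p = 4.44e-07), and small structural RNAs as a class had 5 higher and none lower of 50 (median 0.53), with 16 higher when scaled to genes, 11 higher without 2C samples 1 to 3 and 8 without 2C sample 2 or zygote 9. Simple repeats, 1578 of those tested, supplied 40 of the higher and 128 of the lower calls, or 104 and 69 when scaled to genes.

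**Figure D5:**
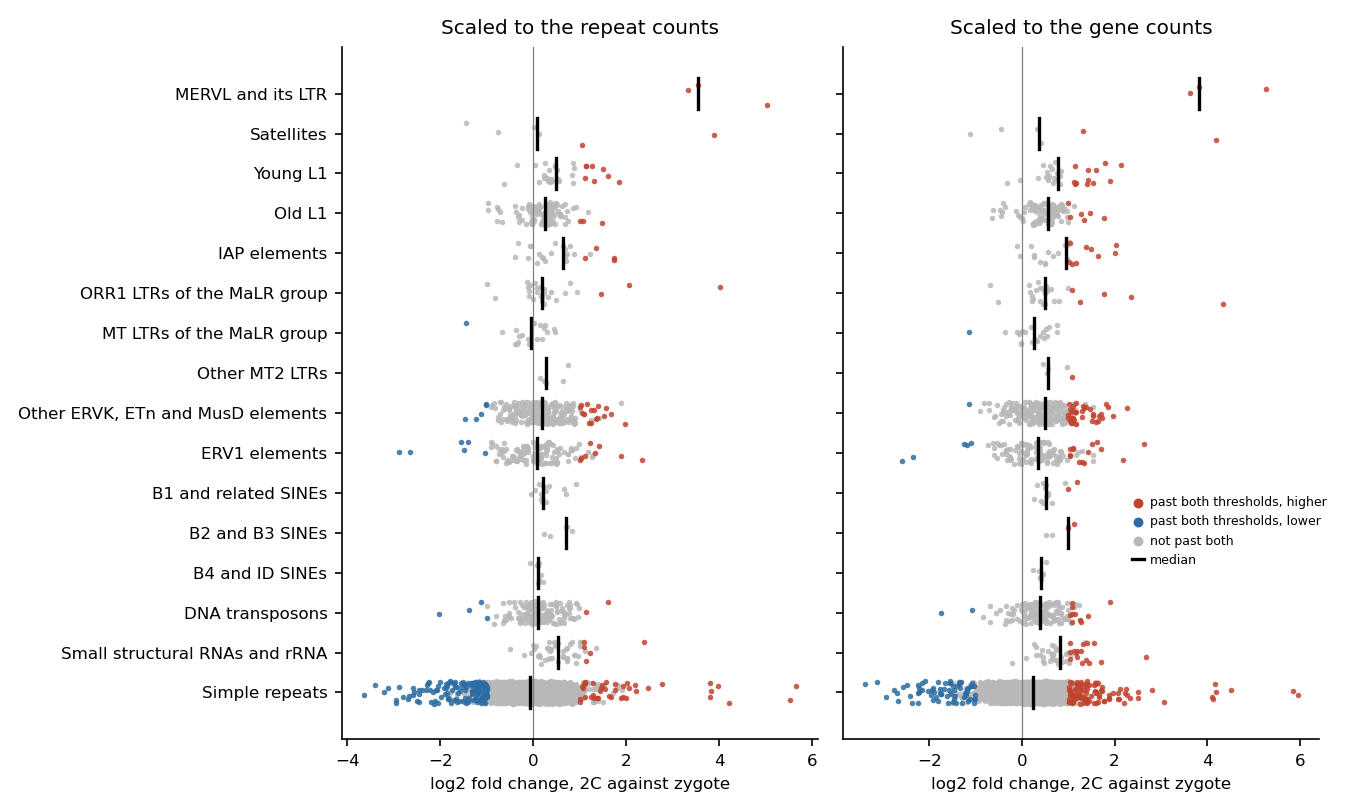
Log2 fold change (2C against zygote) of every tested repeat in 16 classes, scaled to the repeat counts (left) or to the gene counts (right), with repeats past both thresholds in red (higher) or blue (lower) and the class median as a black line. Scaling to the gene counts moved the median of all repeats from 0.06 to 0.35, and MERVL stood at 3.54 and 3.83.

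Markers of other cell types that could cling to an embryo were mostly at or near 0. Of 18 cumulus and granulosa genes 3 passed the filter and none was called, with a summed level of 33.4 TPM in zygotes and 34.9 TPM in 2C samples, most of it Cyp19a1 (27.0 and 18.7 TPM), while the medians of Ptx3, Tnfaip6, Inha and Amh were 0 in both stages. Of 10 blood genes 1 passed (Cd68) and 4 were at 0 in every sample. Of 9 genes of oviduct epithelium 6 passed and 2 were higher, Epcam (2.74 ± 0.63, adjusted p = 0.000664) and Tppp3 (1.71 ± 0.66, adjusted p = 0.0319, not called without any one of 2C samples 6, 7 and 8 or zygotes 4, 6 and 8), with a summed level of 131 TPM in zygotes and 101 TPM in 2C samples, nearly all Cdh1 (122 and 86.7 TPM). Its defining genes Ovgp1 and Foxj1 had medians of 9 and 1 counts in zygotes and 8 and 1 in 2C samples. Of 10 sperm genes 2 passed, Odf2 and Prm2, and none was called. Odf2 held most of the level and also codes for a centriole protein. Prm2, a defining gene of the list, was not at 0: it had 29, 60 and 152 counts in zygotes (median 17.6 TPM). In 2C samples it had 0, 23 and 55 counts (median 9.01 TPM).

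In embryos injected with Kdm5b-yfp mRNA, whose samples are other embryos but share the thaw and the library days, 1301 of 12390 genes were higher in 2C samples (10.5%) and 1977 lower (16.0%). They held 779 of the 1101 genes higher in water controls (70.8% of those, 59.9% of the Kdm5b-yfp list) and 1333 of the 1555 lower ones (85.7% and 67.4%), and a test of the difference between the transitions called 15 of 13778 genes at an adjusted p under 0.05 (0.109%), with 1254 at an unadjusted p under 0.05.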

How the data were processed

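Total RNA of single or pooled mouse embryos was sequenced with a stranded, random-primed single-cell kit. The authors trimmed reads with fastp 0.21.0, aligned them with STAR 2.7.3a in its 2-pass mode to GRCm38 and deposited counts of uniquely assigned fragments per RefSeq gene (featureCounts 1.5.1, strand-aware, duplicates kept, fragments with several matches not counted). For repeats, the authors deposited estimated counts per repeat from Salmon, run on RepeatMasker instances (5.04% were not whole), which were rounded here. No column was of unknown sample. Of 24480 genes and 18536 repeats, those passing edgeR's filterByExpr at a minimum count of 10 were tested with TMM factors and edgeR's quasi-likelihood test (edgeR 4.0.16, R 4.3.3, limma 3.58.1), 10 zygotes against 9 2C samples without covariates. A gene was called past a Benjamini-Hochberg adjusted p of 0.05 and a log2 change of 1 in either direction. SE is the log2 fold change divided by the root of F. The labels name separate samples of a group but no separate females, so p-values measure the spread between these samples. TPM was computed from counts and summed exon length, and tables and figures with Python 3.11.15, numpy 2.4.6, pandas 2.3.3 and matplotlib 3.10.9.

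The comparison, the 78 gene lists (26 entries were not matched to the table) and the 20 repeat classes were chosen with earlier results of these data known. The text names, from each list and direction, up to 2 called genes with the smallest p, passing over some already described in full, and further members named to account for a list or a sequence were chosen after their values were seen. 1 gene and 1 list are not reported here. Promoters came from RefSeq by symbol or older symbol, 9595 of 11968 tested genes. In simulated data with known changes 79.8% of 99 genes changed by a log2 of 1.5 and 96.8% of 95 changed by 2.5 were called, with 2 false calls among 11471. Those counts were drawn from the fitted model, with few changed genes and as many raised as lowered. The real data had many more called genes and unequal directions, so these rates need not hold for them. Alternatives were DESeq2 1.42.0 with its own test or its size factors, other filters, other samples in the fit, a replicate block and leaving out samples. Intact embryos and pooled blastomeres were fitted as 1 group.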

Additional observations from a re-analysis of the deposited data

Results flagged for a closer look

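Single samples stood far from the rest of their group for 21 of 212 groups of values examined, by the gap to the nearest sample relative to the group's range, and chance flags about 1 in 20 groups. Among zygotes, sample 5 was the highest for Gm8300 (1.14 CPM, next 0.346), Pramef25 (1.64, next 0.816), Pabpc1 (10.9, next 7.44), Kpna1 (8.29, next 4.08) and Prps1 (3.48, next 1.88), the lowest for Gspt2 (256, next 295), and the highest in repeat counts per 100 gene counts (42.4, next 35.6). Without zygote 5, 1074 genes were higher and 1533 lower. Sample 10 was the highest for Taf1a (487 CPM), sample 8 for Rpph1 (548 CPM), sample 1 for Ubtfl1 (0.924 CPM) and sample 3 for Sesn2 (7.45 CPM) and Edc4 (366 CPM). Among 2C samples, sample 6 was the highest for Hist2h2ac (94.5 CPM, next 43.8), Suv39h1 (32.1, next 14.0), Prps1 (114, next 53.2) and Scd2 (20.7, next 10.9), and sample 4 for Pramef25 (80.1 CPM). 2C samples 1 to 3 supplied the highest values of 4 genes that fell: sample 1 for Fbxw15 (111 CPM), sample 2 for Gnl2 (36.0 CPM) and Taf1b (23.9 CPM), and sample 3 for Cenpq (56.4 CPM). For these genes the groups did not overlap with the far sample included.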

How the results depend on the processing

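Counts of genes that moved by over 1.5 times were these. Higher genes numbered 1101 in the test as described, 1813 with DESeq2's Wald test, 672 with a mean of at least 50 counts and 1902 with no filter on low counts. Without a threshold on the fold change 3210 genes were higher and 3040 lower. Of all called genes 41.5% were higher, but 52.1% with DESeq2's test, which called 1665 lower. Leaving out 1 sample at a time gave 988 to 1192 higher and 1477 to 1693 lower genes, and leaving out 2C samples 1 to 3, an alternative chosen after seeing the data, gave 1407 higher and 1934 lower genes, 124 higher and 202 lower repeats. Repeats numbered 103 higher and 149 lower. Scaled to the gene counts they were 247 and 80 (75.5% of calls higher instead of 40.9%), with no filter 514 and 361 (58.7%), with simple repeats left out 42 and 35 (54.5%), and with no fold threshold 333 and 341, while a mean of at least 50 counts gave 66 higher. Leaving out 1 sample gave 89 to 114 higher and 123 to 156 lower repeats. Genes whose change differed between Kdm5b-yfp and water-injected embryos were 15, and 36 with single intact 2C embryos only. With the replicate number as a block 812 genes were higher and 1657 lower, and the same numbers in both stages gave correlations of deviations between -0.08 and 0.07, with 1 of 9 samples closest to its own number, so the numbers do not pair samples. Of 6277 values of 225 named genes under the alternatives, 0 reversed, 137 fell short of the thresholds and 10 passed them anew. Of 5742 counts of lists and classes 521 moved by over 1.5 times, often counts of a few genes. Depth limits low genes: 2C libraries held 10723863 counts at the median, levels under a few counts rest on single fragments, and a gene at 0 in all zygotes has no fold change that can be read. Duplicates were not removed and no molecular identifiers were used, so counts overstate the number of molecules seen.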

Other observations

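Further groups held called genes of both directions. Nuclear pore and nuclear transport genes had 5 higher (8.93%, 3 under a filter at a mean of 50 counts) and 8 lower (14.3%) of 56, near the 9.20% and 13.0% of all genes, with Kpna1, an importin alpha, rising from a median of 1.76 to 17.8 CPM (log2 fold change 3.58 ± 0.47, adjusted p = 4.96e-07). Of 27 genes of the oxidative stress and thioredoxin system 5 were higher (3 without 2C sample 1 or zygote 5, 2 without zygote 9) and 8 lower (29.6%), and of 30 tubulin and centriole genes 2 were higher and 7 lower (23.3%). Centromere proteins had 4 of each among 27 (14.8%, 2 higher without 2C sample 6), and Cenpq, a subunit of the inner kinetochore, fell from a median of 120 to 27.7 CPM (-2.09 ± 0.17, adjusted p = 1.89e-10). In the RNA polymerase I and III list Ubtfl1, a relative of the ribosomal DNA factor UBF that is known from preimplantation embryos, rose from a median of 0.104 to 33.1 CPM (7.15 ± 0.55, adjusted p = 1.44e-10). Gspt2, a translation termination factor without introns in its coding gene, fell from a median of 302 to 35.7 CPM (-2.97 ± 0.21, adjusted p = 2.04e-11), and Scd2, a fatty acid desaturase, rose from a median of 0.229 to 6.63 CPM (3.93 ± 0.63, adjusted p = 9.63e-06).

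Away from known families, 6 neighbouring tested genes were higher on chromosome 4 (GRCm38, chr4:72201244-74405864), among them Frmd3 and the H3K9 demethylase gene Kdm4c, which rose from a median of 1.31 to 4.00 CPM (2.21 ± 0.50, adjusted p = 0.000642), with 6 of 9 2C samples above the highest zygote. On chromosome 17, 4 zinc finger genes in a row were higher (chr17:21383748-21588685). On chromosome 13, 4 unrelated neighbours, Txndc5, Bloc1s5, Eef1e1 and Slc35b3, were lower (chr13:38500266-38960875).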
